A study of Mus musculus with 2 samples.

Results

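Promoters of long intergenic noncoding RNA (lincRNA) genes were examined in a DNase-seq map of mouse hippocampus. A promoter was the 1001 bases centred on the 5' end of a GENCODE M21 gene of type lincRNA on chromosomes 1 to 19, with that 5' end more than 2 kb from the start of every transcript of a protein-coding gene. Of 5209 lincRNA genes on these chromosomes 4731 met the rule, and 478 lay nearer to a protein-coding start and were left out. The 4731 were part of 26016 lincRNA and protein-coding gene records on these chromosomes. The enzyme DNase I cleaves DNA that is open to it in the nucleus. Stretches with many cuts are called as peaks, and short stretches of few cuts inside them, called footprints, can mark DNA shielded by a bound protein. Both libraries came from hippocampus, labelled as a layer of that tissue, of female B6CASTF1/J mice (an F1 cross) aged 8 to 10 months, and made up 1 group without any treated or control arm. Each was a pool of 2 biosamples and both carried the same donor record, so spreads between replicates 1 and 2 may be partly technical. The peak lists held 98902 peaks in replicate 1 and 130199 in replicate 2, and the footprint lists 244447 and 251726 footprints. As a check of the tissue label, 6 of 6 neuronal marker promoters were open in both libraries, as were 2 of 3 of dentate granule cells, 2 of 3 of CA1 pyramidal cells, 3 of 4 of astrocytes, 3 of 4 of oligodendrocytes, 1 of 3 of microglia and 1 of 3 of endothelium. None of 3 liver, 3 skeletal muscle and 3 T cell marker promoters was. Of all protein-coding promoters 54.3% were open in both libraries, or 60.4% with any annotated transcript start counted. Counts of 2 of 3 thus lie near the general share, and those of 1 of 3 below it.

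LincRNAs are RNA polymerase II transcripts that are spliced and capped much as messenger RNAs are but code for no known protein, and they are transcribed from their own promoters between protein-coding genes. Many are expressed at low level and in few tissues, often in brain. Others, such as Malat1 and Neat1, are abundant nuclear RNAs of most cells, and a further set hosts microRNAs or small nucleolar RNAs in its introns or exons. CpG dinucleotides are depleted from most of the mouse genome and kept at CpG islands, where many broadly active promoters lie.

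Peak sequences of 9 open members are printed first, because they show kinds of DNA open in lincRNA promoter regions, not always at the 5' end itself. They are CpG-rich promoters of high signal, promoters poor in CpG, a transfer RNA gene near a lincRNA start, and promoters of 2 well-studied lincRNAs. Each is the replicate 1 peak, or the middle 300 bases of a longer one, in mm10, read on the strand of the lincRNA, and bases inside footprints of both libraries are in capitals. The letters come from the RefSeq copy of the reference genome, GRCm38.p6.
6720427I07Rik, chr13:48546561-48546820, minus strand: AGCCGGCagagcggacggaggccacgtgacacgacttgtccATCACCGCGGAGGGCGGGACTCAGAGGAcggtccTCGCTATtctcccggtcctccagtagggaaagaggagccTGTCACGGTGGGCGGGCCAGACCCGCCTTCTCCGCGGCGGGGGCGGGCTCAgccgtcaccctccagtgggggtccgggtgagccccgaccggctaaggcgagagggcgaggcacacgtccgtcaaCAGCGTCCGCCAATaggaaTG
Tmem250-ps, chr2:26140421-26140700, minus strand: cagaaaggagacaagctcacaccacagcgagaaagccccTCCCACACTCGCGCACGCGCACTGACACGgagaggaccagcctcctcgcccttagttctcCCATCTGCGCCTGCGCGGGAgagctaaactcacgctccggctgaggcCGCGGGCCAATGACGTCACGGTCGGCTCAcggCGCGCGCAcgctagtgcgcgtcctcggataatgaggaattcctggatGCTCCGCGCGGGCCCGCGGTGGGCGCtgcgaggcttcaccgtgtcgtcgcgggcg
Gm20732, chr15:68363251-68363550, minus strand: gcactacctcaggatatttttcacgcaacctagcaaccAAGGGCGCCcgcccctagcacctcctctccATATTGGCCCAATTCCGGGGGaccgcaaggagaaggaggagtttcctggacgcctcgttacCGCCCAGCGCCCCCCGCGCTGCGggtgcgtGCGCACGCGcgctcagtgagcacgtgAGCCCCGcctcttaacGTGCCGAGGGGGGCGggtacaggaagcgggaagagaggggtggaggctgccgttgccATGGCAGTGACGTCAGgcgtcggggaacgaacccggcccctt
Gm26901, chr1:7397821-7398060, minus strand: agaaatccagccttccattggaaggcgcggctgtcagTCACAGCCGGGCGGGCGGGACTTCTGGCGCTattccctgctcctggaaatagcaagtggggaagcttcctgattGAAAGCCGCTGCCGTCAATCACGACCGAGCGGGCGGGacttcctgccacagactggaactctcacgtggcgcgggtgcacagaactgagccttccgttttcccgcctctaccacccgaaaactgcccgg
Gm37027, chr1:195018201-195018480, minus strand: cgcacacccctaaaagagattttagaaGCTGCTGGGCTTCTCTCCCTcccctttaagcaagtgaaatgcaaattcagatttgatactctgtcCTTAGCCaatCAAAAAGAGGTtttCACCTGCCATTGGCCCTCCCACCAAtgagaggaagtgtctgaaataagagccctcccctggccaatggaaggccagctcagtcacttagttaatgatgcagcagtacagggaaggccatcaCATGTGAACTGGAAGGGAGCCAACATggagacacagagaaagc
AC118542.1, chr16:18213781-18214040, plus strand: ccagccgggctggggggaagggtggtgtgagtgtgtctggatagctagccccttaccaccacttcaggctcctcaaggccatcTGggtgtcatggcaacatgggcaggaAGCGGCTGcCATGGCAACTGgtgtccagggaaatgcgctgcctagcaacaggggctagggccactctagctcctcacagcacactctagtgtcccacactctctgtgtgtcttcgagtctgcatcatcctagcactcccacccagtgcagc
B230208H11Rik, chr10:12922561-12922780, minus strand: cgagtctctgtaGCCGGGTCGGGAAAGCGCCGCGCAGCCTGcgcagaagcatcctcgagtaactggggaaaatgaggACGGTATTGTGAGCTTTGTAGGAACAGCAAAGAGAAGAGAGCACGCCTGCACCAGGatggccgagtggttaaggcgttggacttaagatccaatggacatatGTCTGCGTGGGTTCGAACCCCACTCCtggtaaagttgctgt
Malat1, chr19:5802581-5802820, minus strand: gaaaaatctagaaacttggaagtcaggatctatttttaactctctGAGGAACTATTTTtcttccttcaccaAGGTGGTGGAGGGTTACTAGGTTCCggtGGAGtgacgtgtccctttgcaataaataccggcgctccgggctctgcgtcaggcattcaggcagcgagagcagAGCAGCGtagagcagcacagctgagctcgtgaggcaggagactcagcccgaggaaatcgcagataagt
Meg3, chr12:109540771-109541070, plus strand: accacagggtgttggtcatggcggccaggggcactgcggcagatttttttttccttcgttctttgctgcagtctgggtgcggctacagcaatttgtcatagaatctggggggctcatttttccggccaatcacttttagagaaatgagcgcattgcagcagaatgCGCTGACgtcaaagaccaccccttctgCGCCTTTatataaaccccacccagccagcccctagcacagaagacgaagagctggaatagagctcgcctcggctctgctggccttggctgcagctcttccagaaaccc

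The sequences differ in CpG dinucleotides and in the share of bases inside shared footprints. That share was 50.5% in the B230208H11Rik peak, which held 14 CpG in 220 bases. The Tmem250-ps peak held 37 CpG in 280 bases with 40% of its bases in capitals, and the 6720427I07Rik peak held 28 CpG in 260 bases with 41.9% in capitals. The Gm37027 peak held 1 CpG in 280 bases and still had 31.8% of its bases in capitals. The AC118542.1 peak held 4 CpG in 260 bases with 8.08% in capitals. Among the well-studied genes, capitals covered 20.4% of the Malat1 peak and 4.67% of the Meg3 stretch.

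Most lincRNA promoters had no peak in this tissue. A peak overlapped 666 of the 4731 regions in both libraries, which is 14.1% (Wilson 95% interval 13.1% to 15.1%, counting error only). Replicate 1 had a peak at 745 regions (15.7%) and replicate 2 at 870 (18.4%), a mean of 17.1% ± 1.87 (SD, n = 2 libraries). A peak was present in replicate 1 alone at 79 regions (1.67%) and in replicate 2 alone at 204 (4.31%), and 3782 regions (79.9%) had none. At protein-coding promoters, described next, a peak in replicate 1 alone was present in 1.40% and in replicate 2 alone in 3.39%. Regions without a peak rarely held a base that the authors list at a false discovery rate under 0.05: 32 of the 3782 (0.846%) did in replicate 1 and 55 (1.45%) in replicate 2. This was rare at the 8503 protein-coding promoters without a peak as well, with 1.49% and 1.95%.

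The openness of lincRNA promoters lay between that of protein-coding promoters and that of DNA away from protein-coding starts in general. Regions drawn in the same way at 20807 protein-coding genes were open in both libraries in 54.3% of cases (53.7% to 55.0%), 40.3 percentage points more than lincRNA regions. All non-overlapping windows of the same length more than 2 kb from protein-coding starts, called distal windows here and holding lincRNA promoters too, were open in 2.79% of 2223674 cases, so lincRNA promoters were open 5.05 times as often. The 478 lincRNA genes left out, within 2 kb of a protein-coding start, were open in 61.7% of cases (57.3% to 66.0%), a value above that of protein-coding promoters. No test across samples was possible with 1 group, and intervals over regions do not cover the spread between animals.

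Peaks gathered at the 5' ends of lincRNA genes. In replicate 1 the share of lincRNA genes with a peak reached 7.65% at 100 bp upstream of the 5' end, and in replicate 2 it reached 8.79% at 50 bp upstream. Between 1500 and 2000 bp away the mean share was 1.11% in replicate 1 and 1.41% in replicate 2, so the maximum was 6.87 and 6.23 times the flank. Protein-coding genes reached 41.4% and 43.4% at 50 bp upstream, or 22.4 and 22.0 times their flanks. The lincRNA profile was therefore centred at about the same place but stood less far above its surroundings.

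**Figure D1:**
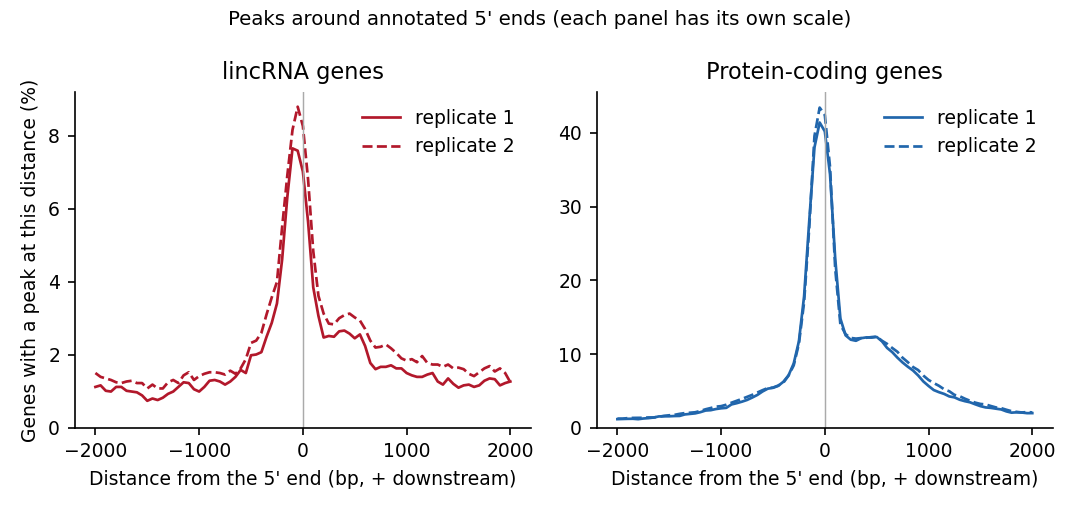
Share of lincRNA genes (left) and protein-coding genes (right) with a peak at each distance from the annotated 5' end, in steps of 50 bp, for replicate 1 (solid) and replicate 2 (dashed). Both kinds peak just upstream of the 5' end, lincRNA genes at 7.65% and 8.79% and protein-coding genes at 41.4% and 43.4%.

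Within open members the peak sat less exactly on the annotated start than at protein-coding genes. The highest peak covered the 5' end itself in 41.9% of the 666 open lincRNA regions in replicate 1 and 44.6% in replicate 2, against 68.3% and 70.2% of the 11306 open protein-coding regions. Its midpoint lay within 250 bp of the 5' end in 65.8% and 64.3% of open lincRNA regions, against 82.6% and 83.7% of open protein-coding regions. The midpoint was upstream of the 5' end in 63.2% and 61.9% of open lincRNA regions, against 64.0% and 65.6% of open protein-coding regions. The median midpoint was at -47.5 bp in both libraries at lincRNA genes and at -30.5 bp in both at protein-coding genes.

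LincRNA promoters with more CpG were open more often. The observed to expected CpG ratio had a median of 0.323 in open members and 0.201 in members without a peak, and 0.742 in open protein-coding regions. In quintiles of this ratio set over lincRNA and protein-coding regions together, lincRNA promoters were open in 5.17%, 11.6%, 23.3%, 56.3% and 75% of cases from the lowest to the highest quintile. Protein-coding promoters were open in 3.41%, 10.4%, 50.4%, 83.7% and 92.2%, and distal windows in 1.60%, 3.44%, 6.28%, 10.4% and 26.3%. The lowest pair of quintiles, with a ratio under 0.301, held 3454 of the 4731 members.

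The gap to protein-coding promoters was therefore not the same at all CpG levels. In quintiles 1 and 2 the lincRNA minus protein-coding difference was 1.76 and 1.22 percentage points. When any annotated transcript start of a gene was counted instead, it reversed to -3.55 and -12.01 points. In quintiles 3, 4 and 5 the difference was -27.1, -27.4 and -17.2 points, and it stayed negative under each alternative run. Weighted to the CpG mix of protein-coding genes, the lincRNA share would be 38.9%, and weighted to the CpG mix of the lincRNA genes, the protein-coding share would be 20.2%. The upper quintiles held 119 and 44 lincRNA promoters, so their shares have wide intervals, 47.3% to 64.9% and 60.6% to 85.4%. Whether CpG content itself accounts for the difference was not tested.

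**Figure D2:**
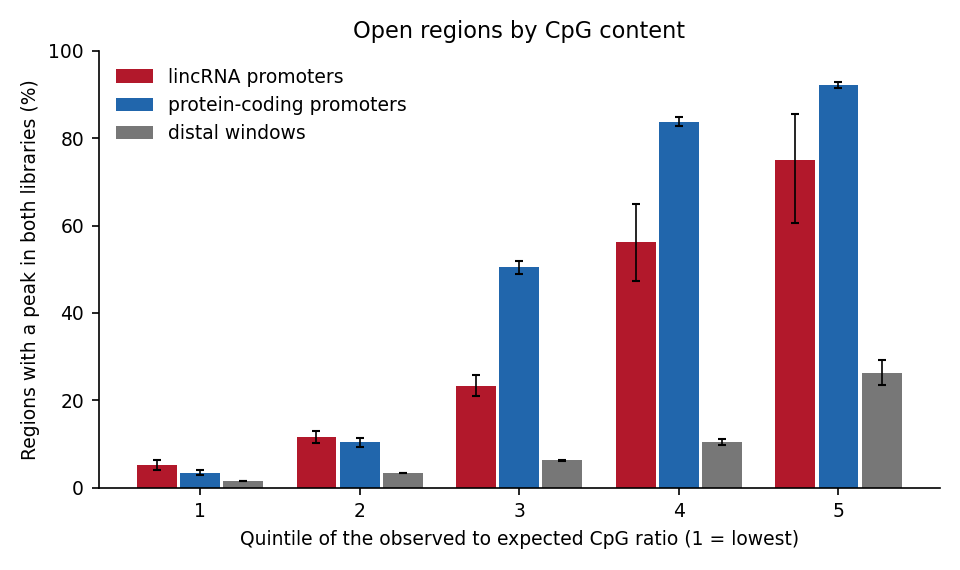
Share of regions with a peak in both libraries for lincRNA promoters (red), protein-coding promoters (blue) and distal windows (grey) in quintiles of the observed to expected CpG ratio; bars show Wilson 95% intervals. LincRNA promoters rise from 5.17% in the lowest quintile to 75% in the highest, below protein-coding promoters from the third quintile on and above distal windows throughout.

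Members with more repeat sequence were open less often. The soft-masked repeat share of the region had a median of 11.7% in open members and 19.03% in members without a peak. Members with 0 to 5% repeats were open in 23.1% of 520 cases, those with 20 to 40% in 10.5% of 1286, and those with 40 to 60% in 3.72% of 457. With 60 to 80% repeats 2 of 156 members were open, and with 80 to 100% 2 of 142. Protein-coding promoters were open in 71.5% of 5672 cases in the first bin and 2.44% of 123 in the last, and distal windows in 6.43% and 0.0637%. The decline was present at both CpG levels: in quintiles 1 and 2 it ran from 12.6% to 2.90% between the first bin and 40 to 60% repeats, and in quintiles 3 to 5 from 43.0% to 7.69%. What part the placing of reads in repeats has in these values was not tested.

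Distance to protein-coding genes went with smaller differences. LincRNA promoters 2 to 5 kb from the nearest protein-coding start were open in 15.9% of 226 cases, those at 10 to 50 kb in 16.4% of 1498, those at 100 to 200 kb in 13.3% of 789, and those over 500 kb away in 8.90% of 292. Distal windows at the same distances were open in 3.45%, 3.38%, 2.66% and 0.997% of cases. Among CpG-poor members (quintiles 1 and 2) the share had no steady course, with 6.75% at 2 to 5 kb, 10.3% at 10 to 50 kb and 6.504% over 500 kb. Among members in quintiles 3 to 5 it was 39.7%, 31.4% and 21.7% at these distances. Median signal of open members was 1.31 in replicate 1 and 1.55 in replicate 2 at 2 to 5 kb, and 0.427 and 0.549 over 500 kb.

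**Figure D3:**
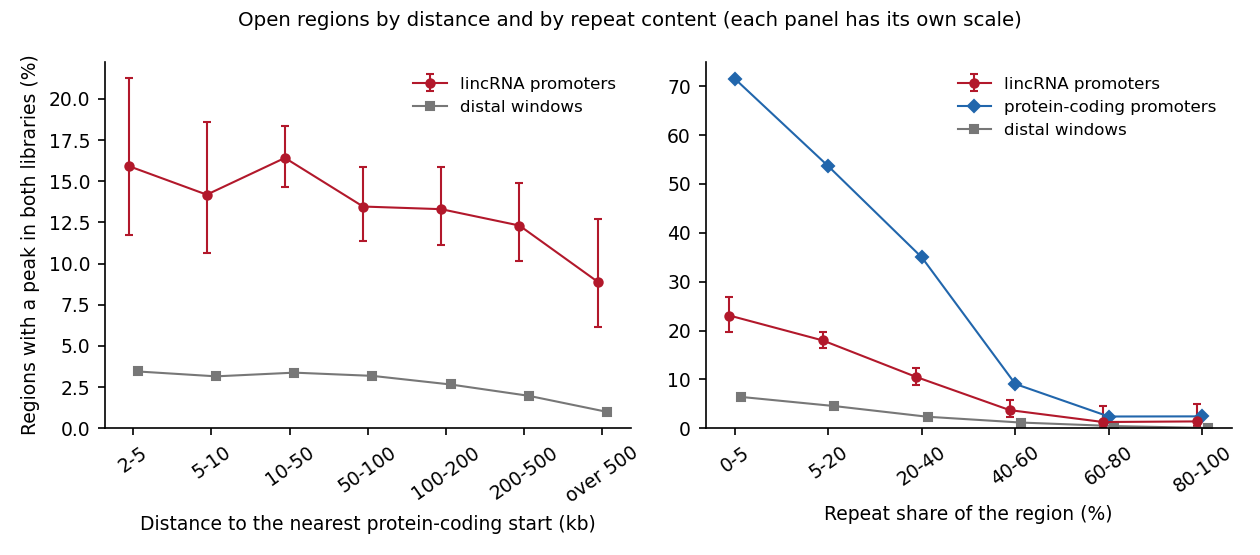
Share of regions with a peak in both libraries by distance to the nearest protein-coding start (left) and by repeat share of the region (right), for lincRNA promoters (red, with Wilson 95% intervals), protein-coding promoters (blue, right panel) and distal windows (grey). LincRNA promoters go from 15.9% at 2 to 5 kb to 8.90% over 500 kb, and from 23.1% in the bin of least repeats to 1.41% in the last.

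Openness also differed with annotation support. Members whose best transcript had support level 1, the strongest, were open in 17.3% of 1679 cases (15.5% to 19.2%), and those at level 5, the weakest, in 9.73% of 904 (7.97% to 11.8%). Members with a RefSeq record of type lncRNA were open in 16.2% of 2198 cases, and those without a RefSeq match in 11.8% of 2458. The 45 members that RefSeq types as protein-coding were open in 15 cases (33.3%, 21.4% to 47.9%). Members with another lincRNA start within 1 kb were open in 19.2% of 193 cases (14.2% to 25.3%), and the others in 13.9% of 4538. Number of exons, gene length and orientation to the nearest protein-coding gene moved the share little: it was 13.5% for single-exon genes and 14.5% for genes of 6 or more exons, and 13.1% for divergent and 14.8% for same-strand neighbours. By chromosome it ranged from 9.32% of 322 members on chromosome 8 to 20.2% of 208 on chromosome 17.

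The signal of open lincRNA promoters was modest. The deposited peak height, called signal here, is the authors' value, and each member was given that of its highest peak. Its median over the 666 open members was 0.824 in replicate 1 and 0.970 in replicate 2, against 2.19 and 2.58 at open protein-coding promoters. Shared distal peaks, counted singly rather than as the highest of a region, had medians of 0.5998 and 0.747 where they touched no member. Those that touched a member had 0.788 and 0.914. In each CpG quintile the median was lower at lincRNA than at protein-coding promoters in both libraries. In the lowest quintile the medians were 0.624 and 0.616 at lincRNA promoters and 0.715 and 0.763 at protein-coding promoters, and in the highest 2.48 and 2.72 at lincRNA promoters and 2.70 and 3.21 at protein-coding promoters.

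The libraries ordered open members alike. Over the 666 members the log2 signals had a Pearson correlation of 0.930 and a Spearman correlation of 0.917, a description of regions that share library and depth. Replicate 2 was higher at 466 members, with a median log2 difference, replicate 2 minus replicate 1, of 0.20. The signals lay within 2-fold of each other at 646 members (97%), and the highest peaks of the libraries overlapped at 642. The widest gap was at Gm26656, chosen here after its values were seen, with 3.74 in replicate 1 and 0.755 in replicate 2, where the highest peaks were different peaks.

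**Figure D4:**
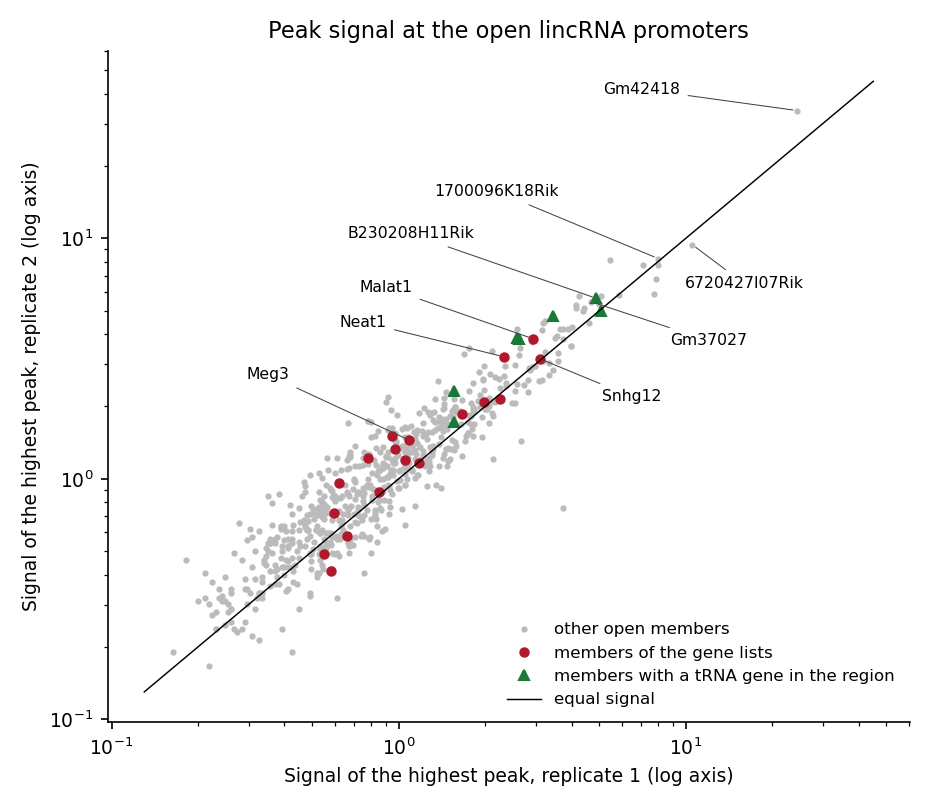
Signal of the highest peak at each of the 666 open lincRNA promoters in replicate 1 (x axis) and replicate 2 (y axis), both on log axes; red circles are members of the gene lists, green triangles members with a tRNA gene in the region, and the line marks equal signal. Points follow the line with a Spearman correlation of 0.917, and Gm42418 stands at 24.4 and 34.0, above all others.

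The highest signal belonged to Gm42418 on chromosome 17, a locus that shares sequence with the ribosomal RNA repeat, with 24.4 in replicate 1 and 34.0 in replicate 2. These were also the highest signals of all peaks in each library. Its peak had 1 further copy of at least 98% identity on the assembled chromosomes, so reads from several places may be counted there, and their part in the value was not tested. Among all open members 5 (0.751%) had such a copy of their replicate 1 peak; 4 peaks of 24 to 26 bases were too short for this search.

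Below it stood CpG-rich promoters of little-studied genes. 6720427I07Rik on chromosome 13, 32930 bp from the nearest protein-coding start, reached 10.6 in replicate 1 and 9.40 in replicate 2. 1700096K18Rik on chromosome 5 had 8.01 and 8.25, Gm12762 on chromosome 7 had 7.99 and 7.78, and Gm20732 on chromosome 15 had 7.86 and 6.75. Tmem250-ps on chromosome 2, named as a pseudogene, had 7.08 and 7.78. Of the 15 members of highest mean signal, 13 were in CpG quintiles 4 and 5, which held 100 of the 666 open members. They were spread over distances of 3766 to 237312 bp from the nearest protein-coding start, and 13 had their replicate 1 peak midpoint upstream of the 5' end.

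Some strong members lay far from any protein-coding gene. Gm20732 was 104320 bp from the start of Zfat, and Gm26901 on chromosome 1, with 4.98 in replicate 1 and 5.35 in replicate 2, was 237312 bp from that of Pcmtd1. A230028O05Rik on chromosome 16, 214464 bp from the start of Lpp, had 4.16 and 5.26. BC002059 and Gm5165, both on chromosome 17, lay 112574 and 113457 bp from zinc finger genes, Zfp960 and Zfp97. BC002059 had signals of 3.74 and 4.19, and Gm5165 of 4.02 and 4.29.

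Many open promoters had a low CpG ratio. Of the 666 open members 306 lay in CpG quintiles 1 and 2, where 8.86% of 3454 members were open. The strongest of the lowest quintile are named here. Gm37027 on chromosome 1 had an observed to expected CpG ratio of 0.155 with 4.66 in replicate 1 and 5.46 in replicate 2, placing it 13th of the 666 by mean signal. The next members of the lowest quintile were lower: Gm46102 on chromosome 9 had 1.91 and 2.79, 2900052N01Rik on chromosome 9 had 2.68 and 1.44, and Gm831 on chromosome 4 had 1.51 and 1.83. AC118542.1 on chromosome 16, printed above, had 1.74 and 1.55, and Gm34256 on chromosome 16 had 1.70 and 1.43. The AC118542.1 peak lay wholly downstream of the 5' end, with its midpoint at 261.5 bp in replicate 1 and 251.5 bp in replicate 2. In the lowest quintile 76 of 1470 members were open.

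Members with a transfer RNA gene in their region, a class chosen after its values were seen, were open in 7 of 10 cases (70%, 39.7% to 89.2%). Transfer RNA genes are short genes transcribed by RNA polymerase III from control elements inside the gene. All 7 had the tRNA gene, as placed by RefSeq on this build, under a peak in both libraries. At Gm11527 that was not the highest peak of the region, whose signal is the one given. Over all members of this class with a peak in the library, the median signal was 2.63 in replicate 1 and 3.82 in replicate 2. The replicate 2 value includes members with a peak in that library alone. Distal windows with a tRNA gene were open in 49.8% of 311 cases (44.3% to 55.4%), and members without one in 13.96% of 4721. The 3 that were not open in both libraries were Gm10685, with no peak, and 4930477E14Rik and Gm26654, which share 1 tRNA gene and had a peak of 0.286 in replicate 2 alone.

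At B230208H11Rik the signal was 4.87 for replicate 1 and 5.64 for replicate 2, with the peak midpoint 419.5 bp downstream of its 5' end. That peak did not reach the 5' end in either library. The tRNA gene n-TLtaa3, chr10:12922571-12922653, lies inside the printed peak, and 32 of its 83 bases were in footprints of both libraries. In Gm11205 on chromosome 11, with 3.45 and 4.77, 34 of 72 tRNA bases were in shared footprints. In Gm46404 on chromosome 13, with 2.59 and 3.85, this was 33 of 73. In Gm26912 on chromosome 12, with 1.56 and 1.72, it was 0 of 74. The other open members lay between: Gm45605 had 21 of 72, C230035I16Rik 23 of 73 and Gm11527 14 of 72. Opening at the tRNA gene and at the lincRNA start cannot be told apart where 1 peak covers both.

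The 6 members listed as nuclear or broadly expressed lincRNAs were all open, against 14.1% of all members. All 6 lie in CpG quintiles 3 to 5, where 23.3%, 56.3% and 75% of lincRNA promoters were open. Malat1, an abundant RNA of nuclear speckles, stood at 2.94 in replicate 1 and 3.82 in replicate 2. Neat1, the scaffold of paraspeckles, had 2.32 and 3.22. Both are on chromosome 19, and Neat1 had 7 footprints in replicate 1 and 8 in replicate 2. Epb41l4aos on chromosome 18 had 0.945 and 1.503, and Lncpint, induced by p53, had 0.969 and 1.33. The mean of the libraries for Lncpint, 1.15, was 2.37 with 2000 bp on either side and 2.99 with any annotated transcript start. The list was completed by 2900097C17Rik, known as Norad, with 0.854 and 0.883, and by Pvt1, the neighbour of Myc, with 0.618 and 0.962. Replicate 2 was the higher library at each of the 6.

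Host genes of small RNAs were split. Of 3 members among the small nucleolar RNA host genes, 2 were open (66.7%, against 14.1% of all members). Snhg12 had 3.10 in replicate 1 and 3.16 in replicate 2, Snhg6 had 2.25 and 2.15, and Snhg20 had no peak. Snhg12 lies in CpG quintile 4 and Snhg6 in quintile 5, where 56.3% and 75% of lincRNA promoters were open. Of 7 microRNA host genes, 3 were open in both libraries (42.9%, against 14.1% of all members). Mir124a-1hg, host of a microRNA enriched in neurons, had 1.66 and 1.85, and Mir9-3hg, host of a microRNA of neural cells, had 1.18 and 1.16. Both lie in CpG quintile 4. Mir17hg, host of a cluster linked to proliferation, had 0.782 and 1.22. Mir670hg had 0.994 in replicate 1 alone. Mir124-2hg and the immune cell hosts Mir142hg and Mir155hg had no peak, although Mir155hg lies in the highest CpG quintile. Peaks of Mir124a-1hg and Mir17hg had their midpoints beyond or at the edge of the region in replicate 1, at 539.5 and -498.5 bp. With 250 bp on either side, or with the peak midpoint required in the region, 1 of 7 was open, and with any annotated transcript start 5 of 7 were.

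Neural lincRNAs were open in 5 of 10 cases, against 14.1% of all members. All of the 10 but Rmst and Mirg lie in CpG quintiles 3 and 4, where 23.3% and 56.3% of lincRNA promoters were open. C130071C03Rik, 68493 bp from Mef2c, stood at 1.98 in replicate 1 and 2.08 in replicate 2. Meg3, an imprinted gene expressed from the maternal allele and strongly in brain, had 1.09 and 1.45. Mir124a-1hg and Mir9-3hg belong to this list as well, and C130073E24Rik, 2073046 bp from the nearest protein-coding start, had 0.594 and 0.724. Rmst, a regulator of neurogenesis, and Mirg, a microRNA-rich neighbour of Meg3, had no peak. The other 3 had one in replicate 2 alone, so that without replicate 1 the count was 8 of 10. Miat, a nuclear RNA of neurons, was among them with 1.12 and was named after its values were seen. A replicate 1 peak of 0.879 overlapped that peak outside the region. Counted with 250 bp on either side 3 of 10 were open, and with any annotated transcript start 8 of 10.

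Lists linked to other tissues and stages were counted in the same way. Of 19 pluripotency-associated transcripts, named for embryonic stem cells, 1 was open (5.26%, against 14.1% of all members), Platr26, with 0.582 in replicate 1 and 0.413 in replicate 2. Its highest peaks had their midpoints 393.5 and 469.5 bp downstream of the 5' end. The count was 0 of 19 on the smaller peak list and with 250 bp on either side, and 4 of 19 with 2000 bp. All 19 lie in CpG quintiles 1 to 3, where 5.17%, 11.6% and 23.3% of lincRNA promoters were open. Lncenc1, Platr1 and Platr10 had no peak. Of 8 lincRNAs of other tissues and development, 3 were open (37.5%, against 14.1% of all members): Bvht, known from heart development, had 1.05 and 1.201, Lockd, downstream of Cdkn1b, had 0.660 and 0.580, and Trp53cor1, a p53 target beside Cdkn1a, had 0.551 and 0.485. The highest peaks of Bvht and Lockd had their midpoints upstream of the region in both libraries. These lay at -561.5 and -551.5 bp for Bvht and at -552.5 and -526.5 bp for Lockd. With the peak midpoint required in the region 2 of 8 were open, and on the smaller peak list 1 of 8. Hotair of the HoxC cluster, Halr1 of the HoxA cluster and H19, an imprinted RNA of the fetus, had no peak. Of the 3 imprinted members Meg3 alone was open (33.3%, against 14.1% of all members), or 2 of 3 with any annotated transcript start. These lists are small and were drawn up by name, so their shares describe these genes and no wider class.

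**Figure D5:**
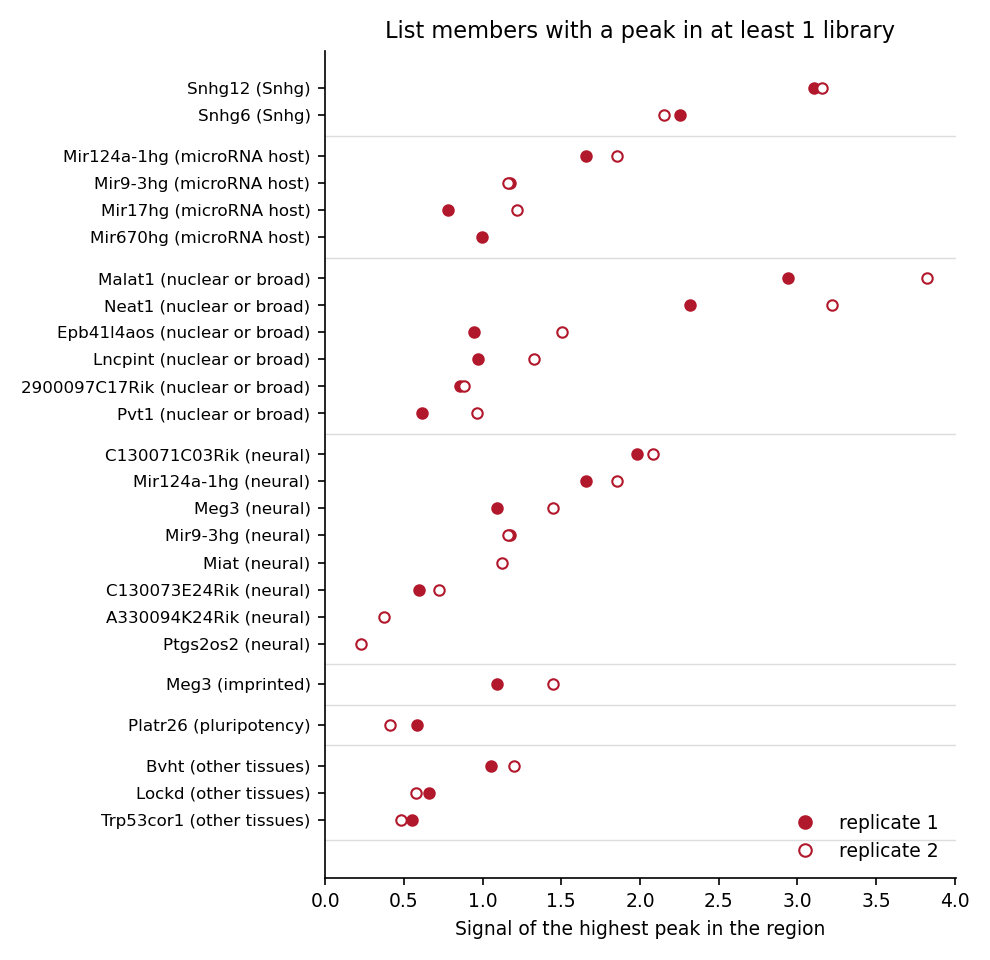
Signal of the highest peak in replicate 1 (filled) and replicate 2 (open) for list members with a peak in at least 1 library, grouped by list; genes in 2 lists appear in each. Malat1, at 2.94 and 3.82, and Snhg12, at 3.10 and 3.16, have the highest means of both libraries, and Miat, A330094K24Rik, Ptgs2os2 and Mir670hg have a value in 1 library.

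Footprints were fewer per base at lincRNA promoters, where signal was also lower. Open members held 1.14 footprints per 100 bases of peak in replicate 1 and 0.986 in replicate 2, a mean of 1.06 ± 0.11 (SD, n = 2 libraries), against 1.48 and 1.38 at open protein-coding promoters, a mean of 1.43 ± 0.069. Within the lowest quartile of lincRNA signal the means were 0.631 at lincRNA and 0.555 at protein-coding promoters. In quartiles 2 and 3 they were 0.900 against 0.865 and 1.18 against 1.15. In the highest quartile they were 1.38 at lincRNA and 1.66 at protein-coding promoters, where protein-coding signal was also higher, with medians of 3.20 and 3.57 against 2.07 and 2.31 at lincRNA promoters. A footprint shared by the libraries was present in 431 of the 666 open members (64.7%), rising from 20.4% in the lowest signal quartile to 95.8% in the highest. No footprint was listed at 76 open members in replicate 1 (11.4%) and at 91 in replicate 2 (13.7%). At open protein-coding promoters this was 3.48% and 4.03%.

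The 6 members with most shared footprints were all in CpG quintiles 4 and 5, which held 100 of the 666 open members. E130102H24Rik on chromosome 4 held 15 footprints in replicate 1 and 10 in replicate 2, of which 8 in each overlapped one of the other library, at signals of 2.48 and 2.07. These signals belong to different peaks of the region, and footprints were counted over all its peaks. Gm11527 on chromosome 11, which also has a tRNA gene at its 5' end, held 10 and 11, of which 9 and 7 were shared, at signals of 5.08 and 4.99. Gm20109 on chromosome 17 held 9 and 10, of which 7 in each were shared, at signals of 2.98 and 2.94. Gm20732 held 6 and 8, all shared.

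Short consensus sequences were counted as matches of letters, 15 of them on both strands of the 1001 bases and the TATA box in a narrower window. The GC box GGGCGG, known as the site of Sp factors, was present in 39.8% of open members and 14.8% of members without a peak, against 86.2% of open protein-coding regions. It was held by 18.8% of all lincRNA and 61.4% of all protein-coding regions. Its letters include a CpG. Among CpG-poor members 14.9% of 388 with a GC box were open, and 8.09% of 3066 without. In the printed 6720427I07Rik peak 3 GC boxes lay wholly in shared footprints, and in Gm26901 another 3, of which 2 overlap. The cyclic AMP response element TGACGTCA was present in 24 open members (3.604%), in 1.14% of members without a peak and in 5.15% of open protein-coding regions, or in 1.46% of all lincRNA and 3.33% of all protein-coding regions. Its match in Tmem250-ps, which shares 1 base with a CCAAT match, and its match in Gm20732 lay wholly in shared footprints, and in Meg3 4 of its 8 bases did. CCAAT itself was present in 76.8% of all lincRNA and 70.3% of all protein-coding regions. The ETS site CCGGAAG was present in 13.7% of open members and 6.58% of members without a peak, against 30.2% of open protein-coding regions, and in 7.504% of all lincRNA and 19.5% of all protein-coding regions. The letters of TGACGTCA and CCGGAAG include a CpG too. Among CpG-poor members 13.3% of 30 with TGACGTCA were open and 8.82% of 3424 without. For CCGGAAG this was 12.4% of 170 and 8.68% of 3284. The E-box CAGCTG, read by neurogenic helix-loop-helix factors among others, was present in 50.9% of open members and 42.1% of members without a peak, against 40.8% of open protein-coding regions, and in 43.9% of all lincRNA and 41.8% of all protein-coding regions.

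A core consensus of CTCF was searched as well. CTCF is a zinc finger protein that binds insulators and the anchors of chromatin loops. The letters were present in 30 of 666 open members (4.50%) and 35 of 3782 members without a peak (0.925%), against 3.72% of open protein-coding regions; 1.44% of all lincRNA and 2.75% of all protein-coding regions held them. Members with a match were open in 44.1% of 68 cases and those without in 13.6% of 4663. Among CpG-poor members the shares were 34.1% of 44 and 8.53% of 3410. Of 25 matches inside peaks of open members, 16 in replicate 1 and 20 in replicate 2 had their midpoint in a footprint.

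Footprints covered matches unequally. Footprints covered 14.3% of peak bases at open members in replicate 1 and 12.2% in replicate 2. The midpoints of GC boxes were in footprints in 47.2% of 269 and 38.5% of 262 cases, and those of GTTGCCA, an arm of the X-box bound by RFX factors, in 45.8% of 59 and 32.8% of 58. At open protein-coding promoters these shares were 50.2% and 45.5% for GC boxes and 43.4% and 39.7% for GTTGCCA. In AC118542.1 1 of 2 GTTGCCA matches lay wholly in shared footprints. Of all lincRNA regions 12.1% held these letters, and of all protein-coding regions 10.7%. The AP-1 site TGANTCA, present in 29.4% of all lincRNA and 18.8% of all protein-coding regions, was in footprints in 9.64% of 83 and 9.52% of 84 cases. At open protein-coding promoters this was 6.15% and 5.39%, so GC boxes and GTTGCCA were covered more often than AP-1 sites at both kinds of promoter. AP-1 sites were held by 26.7% of open members and 29.4% of members without a peak.

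A TATA box was uncommon at open lincRNA promoters. TATAAA between 45 and 15 bases upstream of the 5' end, on the sense strand, was present in 8 open members (1.201%) and 1.96% of members without a peak, against 0.831% of open protein-coding regions and 5.25% of those without a peak. Of all lincRNA regions 1.75% held it, and of all protein-coding regions 2.70%. Meg3, where it starts at base -30, was among the 8 and was named after its match was seen. 2610035D17Rik on chromosome 11 was the strongest of them, with 3.19 in replicate 1 and 4.45 in replicate 2. Longer consensus sequences of REST and ZNF143 had no match in any lincRNA region, and were present in 0.0577% and 0.567% of all protein-coding regions.

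Peaks seen in a single library were mostly low. Median signal was 0.333 at the 79 members with a peak in replicate 1 alone and 0.398 at the 204 with a peak in replicate 2 alone. At 12 of the 79 and 20 of the 204 the other library had a peak within 500 bp of that peak, outside the region. A base with a false discovery rate under 0.05 in the other library lay in the region of 14 of the 79 and 38 of the 204. 4930431P22Rik on chromosome 14, the highest with replicate 1 alone at 2.13, had an overlapping replicate 2 peak of 1.77 beyond the region, as had Gm44127 and Gm36500 on chromosomes 6 and 13. With replicate 2 alone, Gm43397 had 1.72 and AC131323.3 had 1.52, both with an overlapping replicate 1 peak outside the region. Gm13832, at 1.49, and Gm10610, at 1.23, both 5' ends with the replicate 2 peak midpoint within 100 bp, had no replicate 1 peak within 500 bp.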

How the data were processed

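DNase-seq of hippocampus was deposited as processed files of 2 libraries of 1 group. The authors deposited, per library, 2 peak lists of different length, footprints, and positions with their false discovery rates, each from the mm10 alignments of that library alone per the deposited notes. Aligner, callers and versions are not stated in the material used here. The deposited peak signal is never negative and came in whole multiples of 0.00606 in replicate 1 and 0.00795 in replicate 2 (100% of peaks within 0.05 of a step); what a step stands for is not given, so reads per library are unknown and no count test was used. The deposited p-value type columns were the threshold 0.01 of every footprint and false discovery rates under 0.05. Reads of an F1 cross were placed on 1 reference.

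The members and gene lists were chosen with earlier results of these data known. Regions came from GENCODE M21, with starts of all transcripts of protein-coding genes setting the 2 kb distance. A region was open when a peak of the larger list overlapped it by at least 1 bp in both libraries. Sequence, CpG ratio and soft-masked repeats were read from the RefSeq copy of GRCm38.p6, whose chromosome lengths contain all mm10 peaks. Footprints were counted by midpoint inside peaks. Near-identical copies were sought with blastn 2.17.0 (at least 98% identity over 80% of the peak). Statistics used Python 3.11.15, pandas 2.3.3, statsmodels 0.14.6 and pysam 0.24.0, and the overlap functions were tested on simulated peaks. With 1 group no test across samples was possible: shares have Wilson 95% intervals that cover counting error only, and the number of peaks and footprints listed limits the precision.

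Named members were, per list, up to 4 of the highest mean signal among those open and the first 3 by alphabet with no peak; the 15 highest of all; per library the 4 highest with a peak in that library alone; and the 6 highest more than 100 kb from protein-coding starts, in the lowest CpG quintile, and by shared footprints. The other list members, the members with a tRNA gene or a TATA match, Gm26656 and Miat were named after their values were seen. List symbols that are no member are not described. Sequences were not printed for chromosome 18. A sequence chosen for printing is not reported here.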

Additional observations from a re-analysis of the deposited data

How the results depend on the processing

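The share of lincRNA promoters open in both libraries, 14.1%, stayed within the spread between libraries with the peak midpoint in the region, any annotated transcript start, members over 10 kb from protein-coding starts, members free of protein-coding gene bodies and manually annotated records, and with 2 alternatives chosen after seeing the data (starts of transcripts typed protein-coding only, and without members that have another copy). It was 9.72% on the smaller peak list, 11.3% with 250 bp and 23.4% with 2000 bp on either side, and 15.7% to 18.4% with 1 library left out. The difference to protein-coding promoters, -40.3 points, was -38.8 on the smaller list, -36.5 with 2000 bp, -45.3 with any annotated start, and -39.99 to -39.3 with 1 library left out. The median signal, 0.897 as the mean of the libraries, was 1.18 on the smaller list, 0.739 to 0.751 with 1 library left out, where more regions count as open, and 1.19 when divided by the library median of shared peaks, which is another scale. Footprints per 100 bases, 1.06, were 1.31 on the smaller list, 0.539 with shared footprints only and 0.902 to 1.12 with 1 library left out; in covered bases the value was 13.3 per 100. The lincRNA minus protein-coding difference in CpG quintiles 1 and 2 reversed with any annotated start, to -3.55 and -12.01 points. The cause of these shifts was not tested, other than that wider regions or more starts count more peaks. Of the 40 members named by the rule and open in both libraries, 36 stayed so on the smaller list and 35 with 250 bp. With 2000 bp on either side the mean signal, taken from another peak, was 5.85 at Malat1 (3.38 as reported), 4.65 at Neat1 (2.77), 2.32 at Meg3 (1.27), 1.94 at Bvht (1.13) and 0.802 at Trp53cor1 (0.518). No paired analysis was possible because there is 1 group. The peaks' depth is unknown, so a region without a peak was not detectably open rather than shown to be closed.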
